A study of Mus musculus with 2 samples.

Results

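The genes described here are the nuclear receptors other than the steroid receptors, in whole uterus of C57BL/6 mice on day 4 of pregnancy. They were chosen by gene symbol from the authors' table of 22740 genes: thyroid hormone, retinoic acid, retinoid X, peroxisome proliferator-activated, vitamin D, ROR and oestrogen-related receptors, HNF4, and symbols of the Nr series up to letter h, without Nr3c1, Nr3c2 and Nr2f2. The rule found 40 genes on 17 chromosomes. The study holds 2 libraries from 2 mice of 1 group, called uterus 1 and uterus 2. Both are labelled WT and no treatment is given. The series' design text gives 2 independent mice, so the spread given here is between animals, and whole uterus mixes epithelium, stroma, muscle, vessels and leukocytes. In such tissue, fewer cells that carry a transcript and less of it per cell cannot be told apart.

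Nuclear receptors are transcription factors that bind short DNA elements, and many of them are switched by small fat-soluble ligands such as thyroid hormone, retinoic acid, oxysterols or fatty acids. Several of them bind DNA only as a pair with a retinoid X receptor, and without ligand some hold corepressors on their target genes. On day 4 the mouse uterus is prepared by ovarian steroids to receive the blastocyst. Only RNA of the receptors described here was measured, and their action beside the steroid receptors in that tissue was not tested.

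Values are RPKM, reads per kilobase of transcript scaled by library depth, as the authors deposited them, and are given for uterus 1 and then uterus 2. They are scaled by transcript length, so levels of different genes can be set beside each other as far as that length is right. For Ppara it was 7528 bases, beside 3413 for the full annotated transcript it was matched to. For Nr4a3 it was 1884 bases, beside 5068. Whole reads were recovered from the values and summed to 3872908 and 4309220. The intervals made from them cover counting error only. For 7 receptors the number of reads rests on a multiple that no annotated length matched exactly, so their reads, intervals and tests may be off while their RPKM are not touched. These are Rarg (smallest possible reads 19 and 24), Rxrb (81 and 93), Rara (53 and 55), Rorb (43 and 43), Thrb (24 and 19), Nr1h4 (1 and 1) and Esrrg (1 and 2). Markers of epithelium (5 of 5), stroma (5 of 5), smooth muscle (5 of 5), endothelium (4 of 4) and leukocytes (4 of 5) reached 1 RPKM in both libraries. The summed level was 244 and 279 RPKM for the epithelial list and 3917 and 3756 RPKM for the stromal list. Of the fat markers, none of 4 did, and Adipoq and Cidec were listed at 0. Liver markers did so in 1 of 4 cases (Ttr), and ovary markers in 1 of 5 (Star). The oviduct marker Ovgp1 lay at 5.78 and 9.31 RPKM.

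A gene was called detected at 1 RPKM or more in both uteri. By this rule 24 of the 40 receptors (60%) were detected, beside 58.4% of all genes, so the share of the family was near that of all genes. At 10 RPKM or more in both uteri there were 8 receptors of 40, beside 30.4% of all genes. Listed at 0 in both uteri were 3 (Hnf4a, Nr2e1 and Nr2e3), beside 23.4% of all genes. The median receptor lay at 2.28 and 2.23 RPKM, and the median of all genes at 3.28 and 3.23 RPKM. Even the highest receptor had 2382 genes above it. The levels were uneven: Thra, Nr2f6, Nr1h2, Rarg and Rxra together held 47.4% ± 1.28 (SD, n = 2) of the summed RPKM of all 40. In rank order, 14 of the 22 pairs of neighbouring detected receptors had overlapping values and are not told apart.

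**Figure D1:**
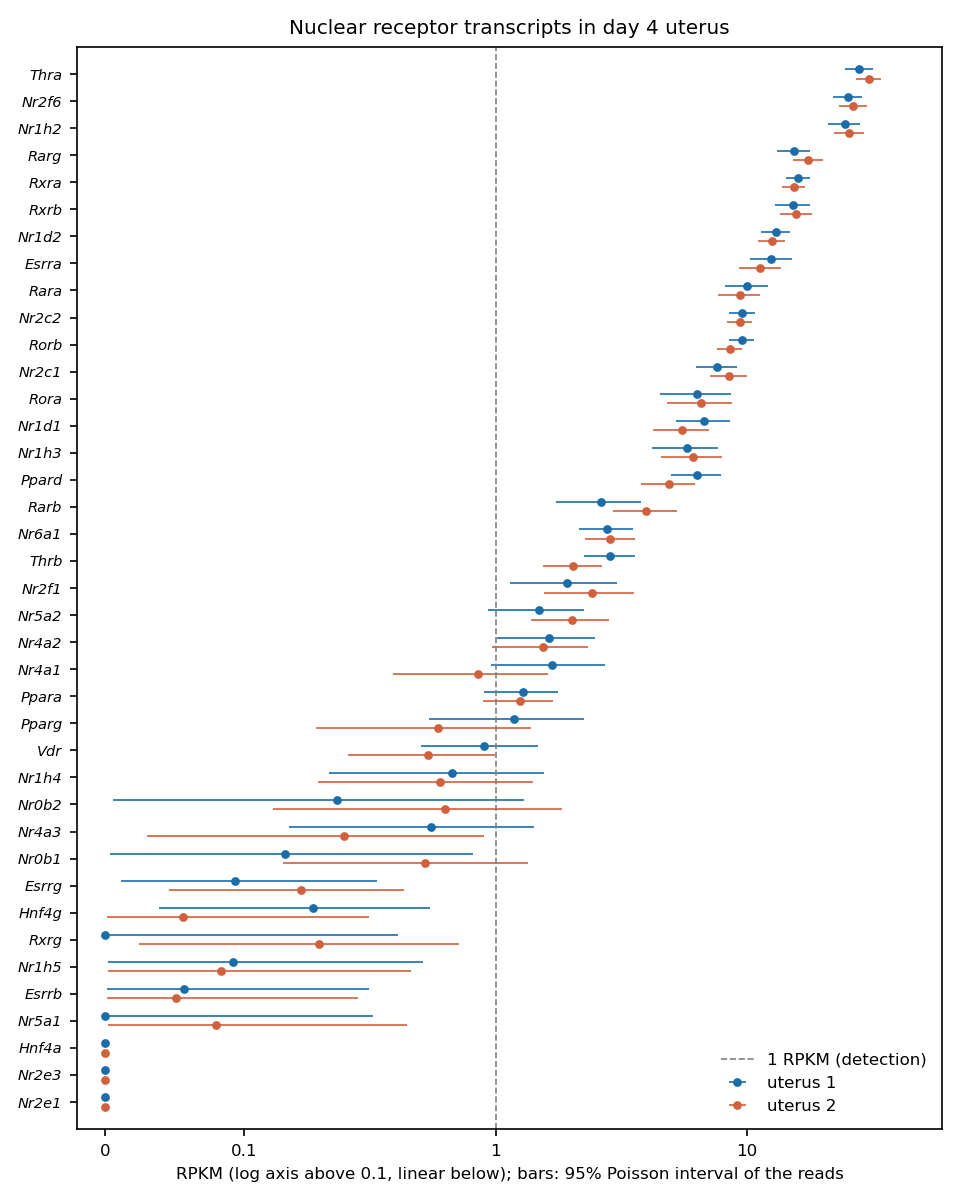
RPKM of the receptors described here in uterus 1 (blue) and uterus 2 (orange), ordered by mean; bars are 95% Poisson intervals of the reads and cover counting error only, and receptors listed at 0 in both uteri carry none. The 10 highest receptors all lie at 9.37 RPKM or more, and intervals widen below 1 RPKM.

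The retinoid X receptors, the shared DNA-binding partners of several other receptors, were represented by 2 of their 3 genes at nearly the same level. Rxra (NM_011305, chromosome 2, 27532721 to 27618839) lay at 16.0 and 15.4 RPKM on 324 and 345 reads. Rxrb (NM_001205214, chromosome 17, 34168757 to 34175348) lay at 15.3 and 15.8 RPKM on 162 and 186 reads. The values of the pair overlap, so neither stood above the other. Rxrg was listed at 0 in uterus 1 and held 2 reads in uterus 2.

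Among the retinoic acid receptors, Rarg was highest, with 15.4 and 17.6 RPKM on 171 and 216 reads. Rara lay at 10.04 and 9.38 RPKM on 106 and 110 reads, below Rarg in both uteri. Rarb, itself a known target of retinoic acid signalling, lay lowest at 2.63 and 3.98 RPKM on 28 and 47 reads. All 3 were detected, and together they summed to 28.1 and 30.9 RPKM. Of 8 retinoic acid targets and handling genes, 5 were detected. Tgm2, a transglutaminase, led them at 174.5 and 177.4 RPKM. By mean Dhrs3, which reduces retinaldehyde, followed at 18.4 and 29.7 RPKM. Stra6 of the same list lay at 19.8 and 15.9 RPKM, above Dhrs3 in uterus 1 and below it in uterus 2. Cyp26a1, which breaks retinoic acid down, lay at 3.22 and 3.83 RPKM, whereas Crabp2 and Cyp26b1 were not detected.

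The thyroid hormone receptors were split between 1 high and 1 low gene. Thra (NM_178060, chromosome 11, 98603187 to 98626425) was the highest of all 40 receptors, at 28.0 RPKM in uterus 1 (95% Poisson interval 24.6 to 31.8) and 30.7 RPKM in uterus 2 (27.2 to 34.4). The length behind its value, 2246 bases, is that of 1 annotated transcript, so its splice forms were not told apart. Thrb lay at 2.86 and 2.04 RPKM on 72 and 57 reads, far below Thra in both uteri. Of 8 thyroid hormone handling and target genes, 5 were detected. Dio2, the deiodinase that makes the active hormone inside cells, lay at 67.4 and 64.4 RPKM on 1502 and 1595 reads. The other deiodinases were not detected: Dio1 was listed at 0, and Dio3, which inactivates the hormone, held 4 reads and 1 read. Klf9, a known target of the receptors, lay at 45.6 and 42.9 RPKM.

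Both liver X receptors, sensors of oxysterols, were detected. Nr1h2, the beta form (NM_009473, chromosome 7, 51805003 to 51809293), lay at 24.6 and 25.6 RPKM on 185 and 214 reads. Nr1h3, the alpha form, lay at 5.76 and 6.12 RPKM on 45 and 53 reads. The lowest value of Nr1h2 was above the highest of Nr1h3, with no overlap of their Poisson intervals. Of 10 target genes, 8 were detected. Apoe, which carries lipid out of cells and is also abundant in macrophages, lay at 312.5 and 433 RPKM, and the cholesterol exporter Abca1 at 41.1 and 42.3 RPKM. The intestinal and hepatic sterol exporters Abcg5 and Abcg8 were near 0.

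The peroxisome proliferator-activated receptors, which respond to fatty acids and their derivatives, were low. Ppard, the form tied to prostacyclin and implantation in mice, led at 6.32 and 4.89 RPKM on 78 and 67 reads. Ppara lay at 1.28 and 1.25 RPKM on 37 and 40 reads. Pparg, the master factor of fat cells, lay at 1.18 and 0.592 RPKM on 9 and 5 reads and was not detected by the rule. Of the PPAR targets that are abundant in fat cells, Adipoq was listed at 0 in both uteri and Plin1 held 1 read in uterus 2. Fabp4 lay at 1.63 and 0.367 RPKM on 4 reads and 1 read, and Lpl, which other cells also make, at 8.31 and 6.27 RPKM on 129 and 108 reads. Of the 14 PPAR targets, 11 were detected, from Pdk4 at 1.44 and 1.22 RPKM upwards. Cd36, a fatty acid carrier, lay at 45.0 and 55.9 RPKM and Angptl4, an inhibitor of lipoprotein lipase, at 37.0 and 51.7 RPKM.

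REV-ERB and ROR receptors compete for the same DNA elements in the clock, where REV-ERBs repress and RORs activate Arntl. Nr1d2, the beta REV-ERB, lay at 13.0 and 12.6 RPKM on 232 and 249 reads. Nr1d1, the alpha REV-ERB, lay at 6.75 and 5.55 RPKM on 68 and 62 reads, below Nr1d2 in both uteri. Of the ROR genes, Rorb was highest at 9.54 and 8.60 RPKM on 301 reads in each library, although it is best known from brain and retina. The retina and brain markers Nrl and Neurod1 were listed at 0, and Syn1 held 8 and 16 reads. Rora lay at 6.35 and 6.57 RPKM on 40 and 46 reads. The length behind its RPKM was 1644 bases, whereas the annotated transcript it was matched to has 10878, so its level depends on the choice of transcript. Of 8 clock targets, 7 were detected, led by Nfil3 at 28.4 and 25.9 RPKM and Clock at 24.5 and 26.9 RPKM. Arntl itself lay at 10.6 and 11.1 RPKM.

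Among the orphan receptors of the NR2 group, Nr2f6 (EAR2, a repressor; NM_010150, chromosome 8, 73898018 to 73905851) ranked second of the 40, at 25.3 and 26.6 RPKM on 215 and 251 reads. The values of Nr2f6 overlap those of Nr1h2, so that rank is by mean only. Nr2f1, a relative of Nr2f6, lay at 1.93 and 2.42 RPKM on 18 and 25 reads. The gene for COUP-TFII in the same subfamily, Nr2f2, which acts in uterine stroma, was left out by the rule and lay at 60.04 and 55.6 RPKM. The testicular receptors Nr2c2 and Nr2c1, which are also found in other tissues, lay at 9.58 and 9.37 RPKM and at 7.63 and 8.53 RPKM. Nr2c2 was above Nr2c1 in both uteri, but their Poisson intervals overlap in each, so counting error alone could account for the order. In addition, 3536 bases of the span of Nr2c2 are shared with Mrps25 on the other strand. The use of strand is not given in the sources used here. Nr2e1 and Nr2e3, receptors of neural stem cells and photoreceptors, were listed at 0 in both uteri.

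Of the oestrogen-related receptors, orphan receptors that drive mitochondrial genes together with PGC-1 coactivators, only Esrra was detected, at 12.6 and 11.3 RPKM on 108 reads in each library. Esrrg held 2 and 4 reads and Esrrb 1 read in each. All 8 of the listed targets were detected, a list that includes Esrra itself. Atp5b, a subunit of ATP synthase, lay at 366 and 350.2 RPKM, and Ndufs3, a subunit of complex I, at 58.3 and 50.7 RPKM. Of the PGC-1 family, Ppargc1b lay at 1.498 and 1.74 RPKM and Ppargc1a at 0.281 and 0.362 RPKM, whereas the related Pprc1 lay at 13.6 and 11.2 RPKM on 274 and 250 reads.

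The NR4A receptors, which are induced within minutes of many stimuli, were low in these libraries. Nr4a2 lay at 1.64 and 1.54 RPKM on 21 and 22 reads. Nr4a1 lay at 1.69 and 0.854 RPKM on 16 and 9 reads and missed detection in uterus 2. Nr4a3 held 4 and 2 reads. All 6 other immediate early genes were detected, and their summed level was 66.8 and 64.5 RPKM. Junb lay at 28.1 and 28.2 RPKM, whereas Fos held 31 and 65 reads and Nr4a1 fewer reads in uterus 2 than in uterus 1. The part of such induction in the NR4A levels was not tested.

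Nr5a2 (LRH-1), which the mouse uterus needs for decidualisation, lay at 1.49 and 2.01 RPKM on 22 and 33 reads. Its relative Nr5a1 (SF-1), the factor of steroid-making cells, held 0 reads and 1 read. Of 7 NR5A targets, 3 were detected, namely Scarb1 at 17.4 and 15.6 RPKM, Star at 2.93 and 3.87 RPKM, and Inha at 1.78 and 2.73 RPKM. Cyp17a1, Hsd3b1 and Cyp19a1 were listed at 0, as was the ovarian marker Fshr. Nr6a1 (germ cell nuclear factor) lay at 2.77 and 2.87 RPKM on 67 and 77 reads. The receptors without a DNA-binding domain, Nr0b1 (DAX-1) and Nr0b2 (SHP), held 1 and 4 reads and 1 and 3 reads.

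The bile acid, vitamin D and HNF4 receptors had no detected member. Vdr, the vitamin D receptor, lay at 0.899 and 0.540 RPKM on 15 and 10 reads. Nr1h4 (the bile acid receptor FXR) lay at 0.669 and 0.602 RPKM on 5 reads in each library. Nr1h5 held 1 read in each library, Hnf4g 3 reads and 1 read, and Hnf4a was listed at 0 in both. Nr1i2 and Nr1i3, xenobiotic receptors outside the naming rule, lay at 0.103 and 0.279 RPKM and at 0.738 and 0.332 RPKM. Of 6 bile acid and xenobiotic targets, 1 was detected: Slc51a, a subunit of a bile acid and steroid transporter, at 2.70 and 5.78 RPKM on 8 and 19 reads, while its partner subunit Slc51b held 0 reads and 1 read. Of 5 vitamin D targets, 2 were detected, and both were far above their receptor. S100g (calbindin-D9k) lay at 231 and 265 RPKM and Calb1 (calbindin-D28k) at 70.6 and 85.0 RPKM, both calcium-binding proteins that steroid hormones also regulate in uterus, and Cyp24a1, the defining vitamin D target, was listed at 0. A listed 0 is not read as absence, since Rpl26, a ribosomal protein gene that every cell uses, was also listed at 0 in both uteri.

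**Figure D2:**
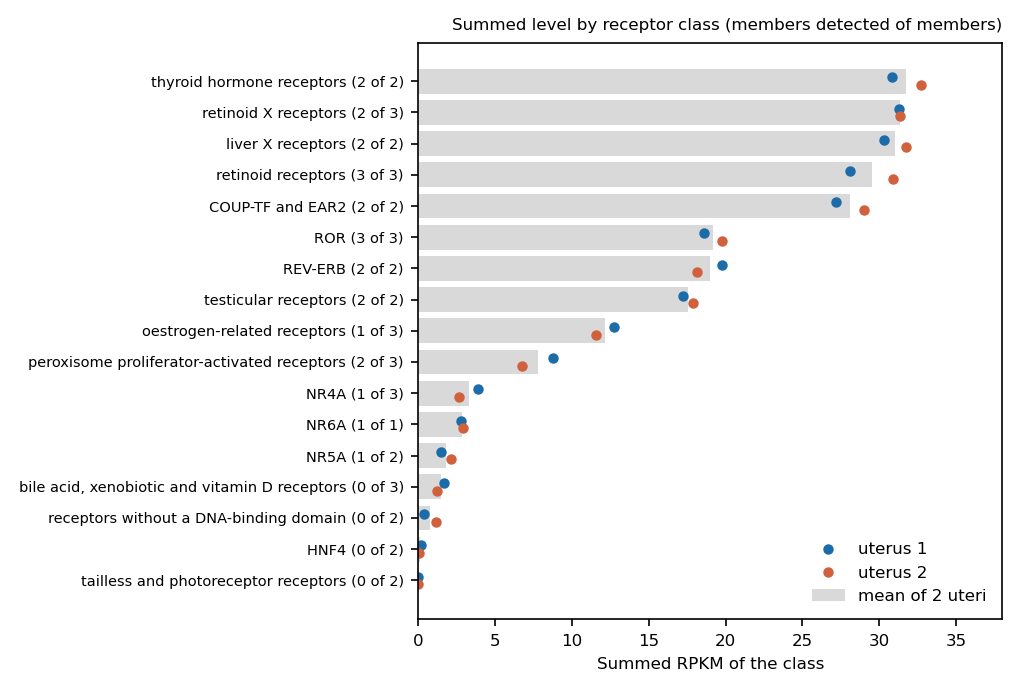
Summed RPKM of each receptor class in uterus 1 (blue) and uterus 2 (orange), with the mean of the 2 uteri as a bar; the numbers in brackets are detected members of all members. Thyroid hormone, retinoid X and liver X receptors lie together between 30.3 and 32.7 RPKM, and 4 classes have no detected member.

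By class, the highest sums were close to each other. The thyroid hormone receptors held 13.4% ± 0.366 of the summed RPKM of the 40 receptors, the retinoid X receptors 13.2% ± 0.160, the liver X receptors 13.1% ± 0.234, the retinoic acid receptors 12.4% ± 0.671 and Nr2f1 with Nr2f6 11.8% ± 0.372 (SD, n = 2 for each). ROR genes held 8.07% ± 0.239, REV-ERB genes 7.99% ± 0.597 and the testicular receptors 7.39% ± 0.105. The oestrogen-related receptors held 5.11% ± 0.420, the peroxisome proliferator-activated receptors 3.27% ± 0.656 and the NR4A genes 1.38% ± 0.384 (SD, n = 2). Without the receptors that overlap another gene, which takes out Esrra, Esrrg, Nr2c2 and Ppard among others, the share was 0.0266% for the oestrogen-related, 4.00% for the testicular and 1.07% for the peroxisome proliferator-activated receptors. These shares depend on which transcript length stands behind each gene.

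The coregulators that receptors recruit were nearly all detected. Of 10 coactivators, 9 were detected, led by the acetyltransferases Crebbp at 32.3 and 30.0 RPKM and Ep300 at 19.3 and 17.8 RPKM. All 9 corepressor genes were detected. Tbl1x lay at 50.3 and 50.2 RPKM and Hdac3, the deacetylase of the NCoR complex, at 40.1 and 36.0 RPKM.

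**Figure D3:**
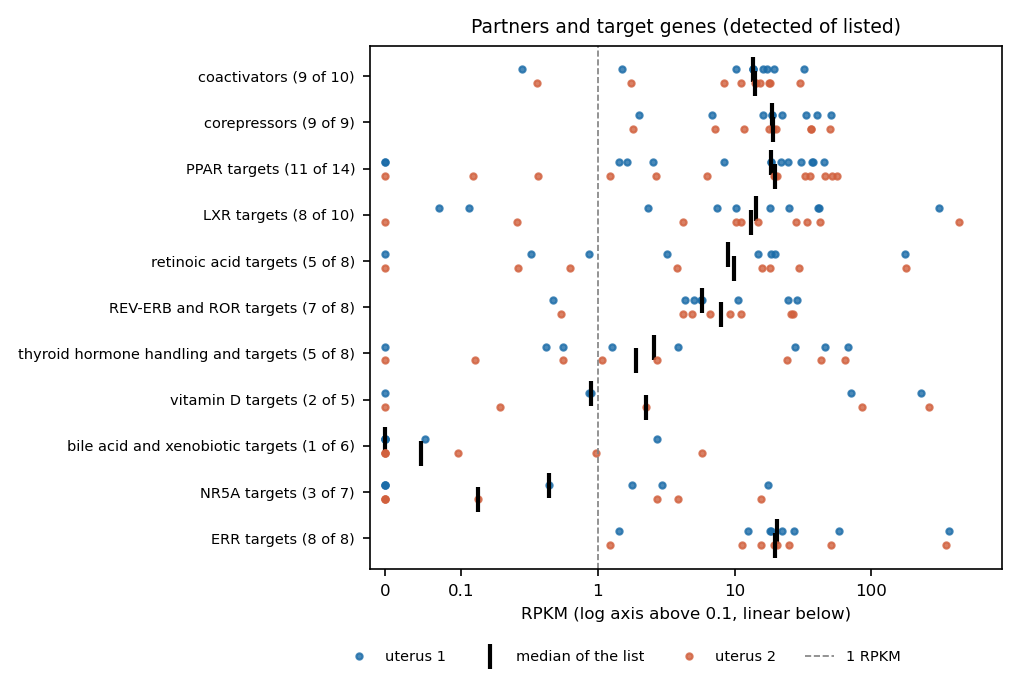
RPKM of the coregulators and of the target and handling genes of each receptor class in uterus 1 (blue) and uterus 2 (orange), with the list median as a black mark; numbers in brackets are detected genes of listed genes. Coregulators and targets of ERR, PPAR and LXR lie mostly above 1 RPKM, while targets of the bile acid and xenobiotic receptors lie mostly at or near 0.

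The promoters of these genes were compared because the receptors ran from 0 to about 30.7 RPKM. Of the 40 receptors, 36 had an entry in the RefSeq promoter table (build GRCm38.p6). CG dinucleotides, which cluster in the promoters of broadly expressed genes, were counted in the 250 bases before the start that had most of them. The first pair below are the highest receptors with an entry, and the other 3 are those listed at 0 in both uteri. Each is written 5′ to 3′ on the gene's strand with every CG in capitals.
Nr2f6, chr8:71381953-71382202, minus strand: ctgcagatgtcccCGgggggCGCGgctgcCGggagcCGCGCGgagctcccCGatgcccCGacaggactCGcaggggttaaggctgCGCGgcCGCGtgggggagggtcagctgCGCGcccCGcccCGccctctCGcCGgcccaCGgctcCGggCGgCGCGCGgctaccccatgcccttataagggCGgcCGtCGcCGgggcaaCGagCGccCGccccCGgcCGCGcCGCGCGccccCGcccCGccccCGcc
Nr1h2, chr7:44553966-44554215, minus strand: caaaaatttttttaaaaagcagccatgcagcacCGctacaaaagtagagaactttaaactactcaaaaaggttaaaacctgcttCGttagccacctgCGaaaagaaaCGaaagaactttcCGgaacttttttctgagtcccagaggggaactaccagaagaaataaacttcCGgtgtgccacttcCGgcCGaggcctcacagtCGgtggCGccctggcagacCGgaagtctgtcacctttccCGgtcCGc
Nr2e1, chr10:42583591-42583840, minus strand: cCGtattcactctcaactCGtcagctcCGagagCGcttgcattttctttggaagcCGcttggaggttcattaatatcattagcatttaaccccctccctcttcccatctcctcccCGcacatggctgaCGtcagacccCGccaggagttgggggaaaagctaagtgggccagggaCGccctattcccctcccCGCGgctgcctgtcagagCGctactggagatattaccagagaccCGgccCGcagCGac
Nr2e3, chr9:59950080-59950329, minus strand: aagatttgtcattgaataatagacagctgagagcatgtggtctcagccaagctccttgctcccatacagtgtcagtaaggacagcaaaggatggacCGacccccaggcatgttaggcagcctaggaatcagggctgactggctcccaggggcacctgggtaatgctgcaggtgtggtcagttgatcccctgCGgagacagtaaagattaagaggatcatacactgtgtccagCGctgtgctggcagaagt
Hnf4a, chr2:163546905-163547154, plus strand: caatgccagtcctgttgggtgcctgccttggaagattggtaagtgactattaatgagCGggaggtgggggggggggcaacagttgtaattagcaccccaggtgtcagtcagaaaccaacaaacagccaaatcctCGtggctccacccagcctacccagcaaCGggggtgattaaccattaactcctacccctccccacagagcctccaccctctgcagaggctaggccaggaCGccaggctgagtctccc

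Nr2f6 has 42 CG dinucleotides in this window, Nr1h2 13, Nr2e1 15, Nr2e3 3 and Hnf4a 4, so the number does not order these 5 by level. Over the 22 detected receptors with an entry the median was 19 (6 to 44), and over the 14 not detected it was 9 (3 to 38). The same medians over all genes with an entry were 17 for 9721 detected genes and 3 for 6644 others. The undetected receptors Pparg (38) and Nr4a1 (34) lay below Nr2f6 (42), Rxra (40) and Rxrb (39) but far above Nr1h2 (13). Nr1d1 (7) and Rarg (11) were detected with few. In the same table, with 50 further bases after each start included and either strand searched, the letters AGGTCA, the core element of many nuclear receptors, occur in 12 of 56 receptor promoters (21.4%), beside 16.3% of all 32851. CACGTG (the E-box) occurs in 4 of 56 (7.14%), beside 7.15% of all, and TGACGTCA (the cAMP response element) in 2 of 56 (3.57%), beside 1.79%. A match to these letters is a description of the sequence and not a binding site.

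**Figure D4:**
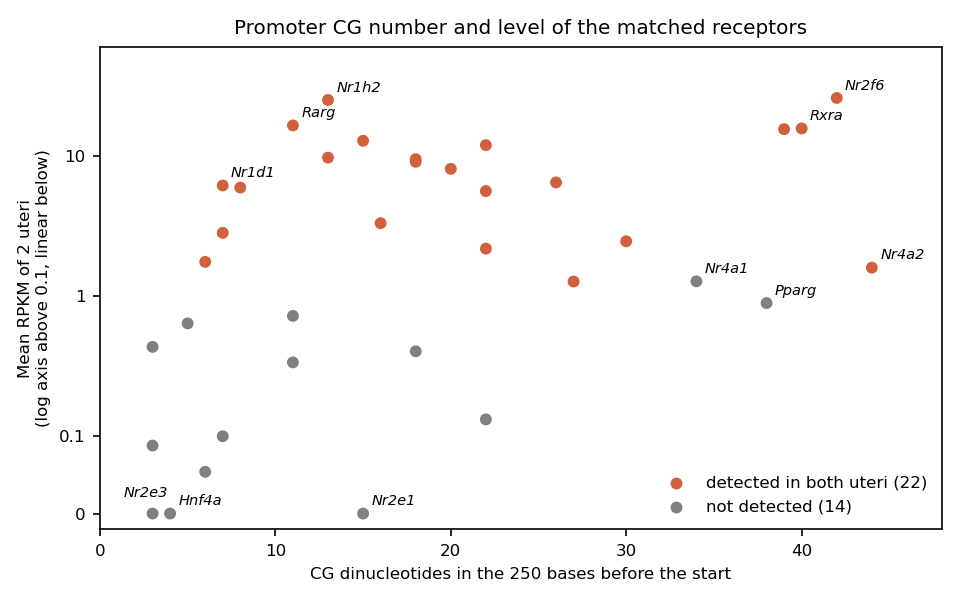
Number of CG dinucleotides in the 250 bases before the start (horizontal) against mean RPKM (vertical) for the 36 receptors with an entry, orange where detected in both uteri. Nr2f6 and Rxra combine many CG with high levels, Nr1h2 and Rarg lie high with 13 and 11, and Pparg lies under 1 RPKM with 38.

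The receptors differed little between the 2 mice, and so did most genes whose mean reached 1 RPKM. With 0.1 RPKM added to each value, which understates the change of low genes, the log2 ratio (uterus 2 over uterus 1) was -0.90 for Nr4a1 and 0.58 for Rarb, both among the low receptors. None of the 25 receptors whose mean reached 1 RPKM was 2-fold apart, beside 2.6% of all genes at that level, and 13 were higher in uterus 2 and 12 in uterus 1. Over the 16 receptors whose mean reached 5 RPKM the ratio stayed between -0.36 (Ppard) and 0.19 (Rarg). Its median size was 0.13 over the 25 receptors and 0.17 over all genes at that level.

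Recovered reads were compared by a two-sided exact binomial test with Benjamini-Hochberg adjustment over 15149 genes, which compares these libraries and not conditions. It called none of the 30 receptors with at least 6 reads in sum, beside 4.87% of all genes tested. At an unadjusted p under 0.05 there was 1, beside 15.9% of all genes. A set of 30 genes leaves room for few calls, and the test finds less where reads are fewer. The median detected receptor lay at 7.19 and 7.55 RPKM, below the median detected gene at 11.4 and 11.4 RPKM. A smaller difference than in other genes is therefore not concluded. The adjusted exact p was 0.358 for Thrb with 72 and 57 reads and 0.409 for Rarb with 28 and 47 reads. For Nr4a1, with 16 and 9 reads, it was 0.465 by this exact test, and a difference of that size was not detectable with so few reads of the gene.

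**Figure D5:**
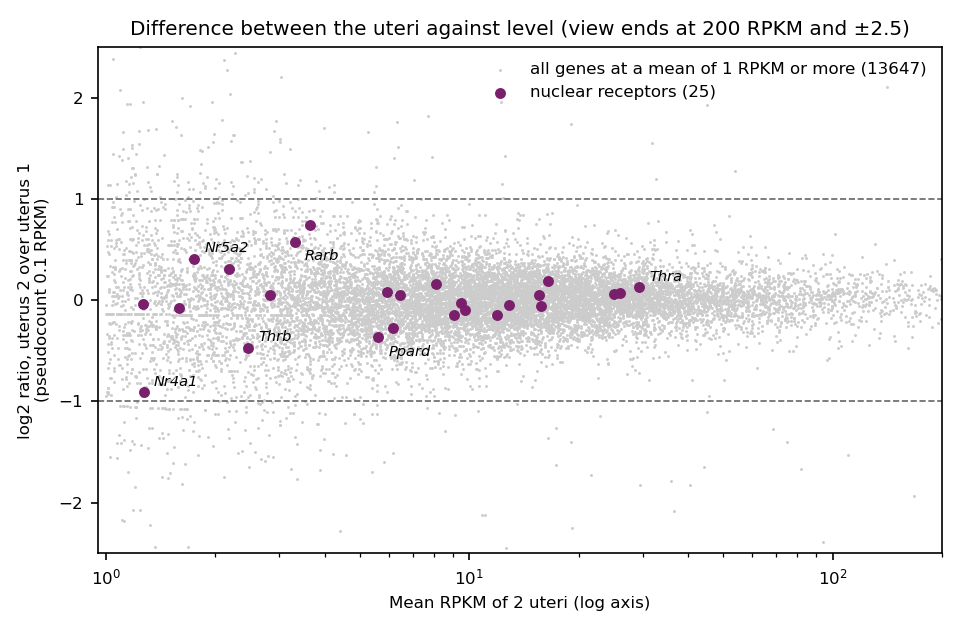
Log2 ratio of uterus 2 over uterus 1 against mean RPKM for the 13647 genes whose mean reached 1 RPKM (grey) and the 25 nuclear receptors among them (purple); dashed lines mark 2-fold, and genes beyond 200 RPKM or a log2 ratio of 2.5 either way lie outside the view. All 25 receptors lie between the lines, and those furthest from 0 are at low levels.

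Among the 91 coregulator and target genes, 9 of the 71 tested were called by the same exact binomial test. Of these, 8 were higher in uterus 2, beside 2.25% of all genes tested, and 1 in uterus 1, beside 2.62%. Those higher in uterus 2 included Apoe (adjusted p = 1.49e-20, 1499 and 2307 reads), Cd36 (0.000939, 678 and 935 reads), Angptl4 (0.000934, 270 and 419 reads), Dhrs3 (0.000900, 127 and 227 reads) and Calb1 (0.00408, 776 and 1037 reads). Abcg1 and Cry1 were also of that direction. By receptor class this gave 3 of 11 tested PPAR targets, 2 of 8 LXR targets, 1 of 6 retinoic acid targets, 1 of 8 clock targets and 1 of 4 vitamin D targets. Among the cell type markers, Krt18 of epithelium (378 and 562 reads), Dcn of stroma (3647 and 5126 reads) and Myh11 of smooth muscle (7977 and 9883 reads) were called higher in uterus 2. Col1a1 of stroma, Acta2 of smooth muscle and Kdr of endothelium were called higher in uterus 1, so the stromal and muscle lists each held calls of both directions. No leukocyte marker was called: Csf1r held 288 and 378 reads, Ptprc 385 and 521, Emr1 239 and 239, and Cd68 59 and 61. The part of cell make-up in these differences was not tested. Where the mean reached 1 RPKM, the list genes 2-fold apart were Trpv6, an epithelial calcium channel, on 10 and 28 reads, and Slc51a on 8 and 19 reads. Their adjusted exact binomial p was 0.121 and 0.403.

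Beside the steroid receptors the levels of these 40 genes were modest. Esr1, the oestrogen receptor, lay at 106.9 and 99.2 RPKM, and Pgr, the progesterone receptor, at 77.5 and 66.4 RPKM. The glucocorticoid receptor Nr3c1 lay at 20.1 and 20.5 RPKM, Nr3c2 at 3.06 and 1.72 RPKM and Esr2 at 0.388 and 0.140 RPKM. Thra, the highest of the 40, thus lay below Esr1 and Pgr in both uteri and above Nr3c1. No test exists between these genes, and the values are a description of 2 mice.

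Some receptors share part of their span with another gene, and reads there could belong to either. Esrra shares 50 bases with Trmt112 (27.8 and 26.0 RPKM) on the other strand, and Nr2f1 shares 966 bases with A830082K12Rik (1.24 and 1.94 RPKM) on the other strand. On the same strand, Ppard encloses 1810013A23Rik (1.25 and 1.69 RPKM) and Rora encloses 9530091C08Rik (8.80 and 7.63 RPKM). The level of Nr2f1 is close to that of its partner, and the source of its reads was not tested.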

How the data were processed

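Poly-A RNA of whole uterus from 2 mice on day 4 was sequenced on a HiSeq2500. The authors normalized the values to RPKM, per the labels; the submitters' processing notes name TopHat, edgeR and mm9 without a role or version. The counting program, the annotation release and the use of strand are not given in the sources used here. The 2 deposited tables are identical in RPKM for the genes they share. Deposited starts were read as counted from 0 and are printed counted from 1 on mm9.

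RPKM times the library's scaling total is an exact ratio of reads to length. Single-exon genes gave totals of 3834174 and 4256101. Reads of each gene are the smallest whole numbers that fit both libraries, times a common factor set by the nearest GENCODE M1 transcript length (build NCBIM37), trimmed or extended to the deposited span. For 21 of the 37 receptors with reads this length was matched exactly, and for the other 16 it was within 13.6%; of 11 with a factor above 1, 4 matched exactly, and the reads of the other 7 may be off. For Rorb, for example, the smallest reads are 43 and 43 and the factor is 7. The methods were tested on simulated data, which does not settle the factors of these 7 receptors. Intervals are exact 95% Poisson intervals, and PCR copies are not independent molecules. That the libraries are separate animals rests on the series' design text.

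Python 3.11.15, scipy 1.17.1 and pandas 2.3.3 were used. Named genes were every receptor whose mean reached 1 RPKM, the 2 highest genes of each list, list genes 2-fold apart at that mean, the steroid receptors and overlapping genes; others were named after their values were seen. Some genes that this rule names are not reported here. The receptors and lists were chosen with earlier results of these data known. Alternatives covered thresholds, pseudocount, filters, TPM scaling, overlap with other genes, read factors and leaving out each library.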

Additional observations from a re-analysis of the deposited data

How the results depend on the processing

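The 24 detected receptors became 28 at a threshold of 0.5 RPKM and 20 at 2 RPKM. No receptor was 2-fold apart with a pseudocount of 0.01 or 1 or a filter at 5 RPKM. Without a filter 3 were (Nr0b1, Nr0b2 and Rxrg, on at most 4 reads), at a mean of 0.1 RPKM 2, and on the TPM scale 1 (Nr0b2), beside 8.12%, 8.56% and 4.93% of all genes. The exact binomial test called 0 receptors under its 4 alternatives, 1 of which was chosen after seeing the data. With the smallest possible reads it tested 27, and over the alternatives the lowest adjusted p of any receptor ran from 0.217 to 0.267.

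Leaving out the 6 receptors that overlap another gene changes the sum and, for 5 classes, the members, so shares move by construction. The 5 highest then held 55.8%, and the class shares were 14.6% (retinoic acid), 15.5% (retinoid X), 1.07% (PPAR), 15.7% (thyroid hormone), 9.41% (REV-ERB), 6.30% (ROR), 15.4% (liver X), 4.00% (testicular), 12.9% (COUP-TF and EAR2), 0.0266% (oestrogen-related) and 1.40% (NR6A). The counts of detected list genes stayed within 1.5 times under all 5 of their alternatives. The TPM scale multiplies levels by 2.37 and 2.36 in the libraries. For a mean of 2 libraries, the step to either 1 is under 1 SD by construction. No paired analysis was possible because both libraries belong to a single group. Receptors with a mean under 1 RPKM rest on 15 reads or fewer, which limits every statement on them.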
